A study of Mus musculus with 12 samples.

Results

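The genes that encode OCT4 (Pou5f1), SOX2, KLF4 and MYC, the factors used to reprogram fibroblasts, and Nanog, a pluripotency gene outside that set, were examined for peaks of H3K79me1 and H3K79me2. Each gene was represented by a window on build mm9 meant to hold the gene and its surroundings, set by position and without use of the measurements. Gene models of mm9 were not used, so peaks are placed within a window and not against exons or start sites. The windows were chr17:35640000-35650000 for Pou5f1, chr3:34545000-34556000 for Sox2, chr4:55538000-55548000 for Klf4, chr15:61814000-61825000 for Myc and chr6:122655000-122667000 for Nanog. Of 933917 peaks in the 8 deposited lists, 48 overlapped one of the 5 windows. The Klf4 and Myc windows held 20 of them each, Pou5f1 and Nanog 3 each and Sox2 2.

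Mouse embryonic fibroblasts were profiled by ChIP-seq at day 4 of reprogramming, and each mark has a peak list from 2 control and 2 Cre libraries, named here control 1, control 2, Cre 1 and Cre 2. Control cells had the genotype AF10 fl/fl, OSKM, rtTA and received the empty adenovirus Ad5-CMV-Empty. Cre cells came from the same floxed line, received Ad5-CMV-Cre, in which the CMV promoter drives the recombinase, and are labelled AF10 -/-, OSKM, rtTA. All cells received doxycycline at 2 µg/mL from 2 days after the virus, so the inducible OSKM factors (OCT4, SOX2, KLF4 and MYC) were switched on in both groups. The cells grew on DR4 feeder fibroblasts, which are not of the floxed line and whose chromatin may be present in every library. No label says that replicates were separate cultures, so a p-value here measures the spread between these libraries only. Copies of Pou5f1, Sox2, Klf4 and Myc in the OSKM transgene can add reads to the exons of the endogenous genes. Their part in the peaks described here was not tested. The lists name no genes and a histone mark gives no expression, so the labelled cell type was not checked by markers.

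H3K79 is methylated by DOT1L, and AF10 (Mllt10), a cofactor of DOT1L, favours the higher methylation states. The marks lie over transcribed gene bodies, mostly in their 5′ part, and are low over silent genes. Pou5f1, Sox2 and Nanog are silent in fibroblasts and form the core of the pluripotency network once it is established. Klf4 and Myc encode factors with wider roles in growth and cell identity, and both genes are transcribed in many fibroblast cultures. The OSKM system expresses all of OCT4, SOX2, KLF4 and MYC from the transgene, while the endogenous genes start from different states.

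RefSeq promoters (GRCm38.p6, a later build than the peak positions, so the coordinates are not comparable) were found for 4 of the 5 genes, which did not include Myc. The 250 bases before the annotated start are printed because they set Klf4, which had peaks in every list, beside 3 genes that had few. Capitals mark the dinucleotide CG, which reads the same on both strands. The stretches are chr4:55532476-55532725 on the minus strand for Klf4, and on the plus strand chr3:34649745-34649994 for Sox2, chr17:35505782-35506031 for Pou5f1 and chr6:122707239-122707488 for Nanog.
Klf4: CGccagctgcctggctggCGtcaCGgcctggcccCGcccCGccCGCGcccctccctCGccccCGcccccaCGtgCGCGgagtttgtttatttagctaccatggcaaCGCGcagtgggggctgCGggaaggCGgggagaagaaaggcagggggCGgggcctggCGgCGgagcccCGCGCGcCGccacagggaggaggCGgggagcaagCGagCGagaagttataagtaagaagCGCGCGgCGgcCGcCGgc
Sox2: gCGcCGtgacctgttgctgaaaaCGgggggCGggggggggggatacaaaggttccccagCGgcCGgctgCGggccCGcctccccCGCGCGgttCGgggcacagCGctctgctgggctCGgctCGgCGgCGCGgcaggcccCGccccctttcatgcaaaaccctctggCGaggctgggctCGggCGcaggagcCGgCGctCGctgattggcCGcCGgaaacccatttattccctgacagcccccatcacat
Pou5f1: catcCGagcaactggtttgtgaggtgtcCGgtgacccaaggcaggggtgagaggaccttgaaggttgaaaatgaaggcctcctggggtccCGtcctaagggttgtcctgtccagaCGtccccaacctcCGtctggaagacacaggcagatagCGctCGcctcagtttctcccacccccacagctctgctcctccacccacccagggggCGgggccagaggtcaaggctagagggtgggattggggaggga
Nanog: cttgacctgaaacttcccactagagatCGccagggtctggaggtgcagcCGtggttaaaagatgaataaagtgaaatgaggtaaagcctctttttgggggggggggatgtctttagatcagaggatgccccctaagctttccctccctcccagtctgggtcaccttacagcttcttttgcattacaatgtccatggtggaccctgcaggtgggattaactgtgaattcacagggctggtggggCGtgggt
The CG count was 32 in Klf4, 27 in Sox2, 8 in Pou5f1 and 3 in Nanog. Of 27025 promoters in the table, 91.7% held at least 1 CG in the same 250 bases, and the median was 6. Fewer CGs than in Klf4 were found in 95.6% of promoters, and fewer than in Sox2 in 91.8%. For Pou5f1 and Nanog these shares were 56.6% and 29.6%. Klf4 had 20 peaks and Sox2 had 2. Whether CG count bears on the calling of peaks was not tested, and Myc had no promoter entry.

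The lists differed widely in how much of the autosomal genome they covered, and this bears on every value below. For H3K79me1 this share was 4.76% in control 1, 2.16% in control 2, 2.41% in Cre 1 and 0.0748% in Cre 2. For H3K79me2 it was 0.637% in control 1, 2.83% in control 2, 1.92% in Cre 1 and 1.99% in Cre 2. H3K79me1 Cre 2 and H3K79me2 control 1 thus stood below the other lists of their mark. Read depth is unknown, because the lists give no counts.

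Klf4 and Myc carried peaks of both marks in all 8 lists, and Pou5f1, Sox2 and Nanog in few. A peak in all 8 lists was found in 2.57% of 247223 autosomal windows of 10 kb. For H3K79me1, Klf4 and Myc had a peak in 4 of 4 lists, as did 2.89% of 10 kb windows. Pou5f1 and Sox2 had none in any list, as did 74% of 10 kb windows, and Nanog had a peak in 1 list. For H3K79me2, Klf4 and Myc again had a peak in 4 of 4 lists (6.75% of 10 kb windows), Pou5f1 in 3, Sox2 in 2 and Nanog in 1, and 54.4% of 10 kb windows had a peak in none. In its own list the H3K79me2 cover of Myc was higher than that of 95.7% to 98.5% of 10 kb windows, and that of Klf4 higher than 96.9% to 97.8%. For H3K79me1 these shares ran from 83.4% to 98.5% at Myc and from 83.4% to 99.2% at Klf4. Windows without a peak make up most of these shares. A list held an H3K79me1 peak in 3.40% to 21.2% of 10 kb windows, and an H3K79me2 peak in 9.98% to 36.1%. In H3K79me2 Cre 1 the single peaks of Pou5f1 and Sox2 thus ranked above 90.1% and 93.6% of windows. Bases covered in at least 1 list made up 42.7% of the Myc window and 39.6% of the Klf4 window, against 6.54% at Sox2, 4.50% at Pou5f1 and 4.17% at Nanog. The map of called peaks shows these positions for every library.

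**Figure D1:**
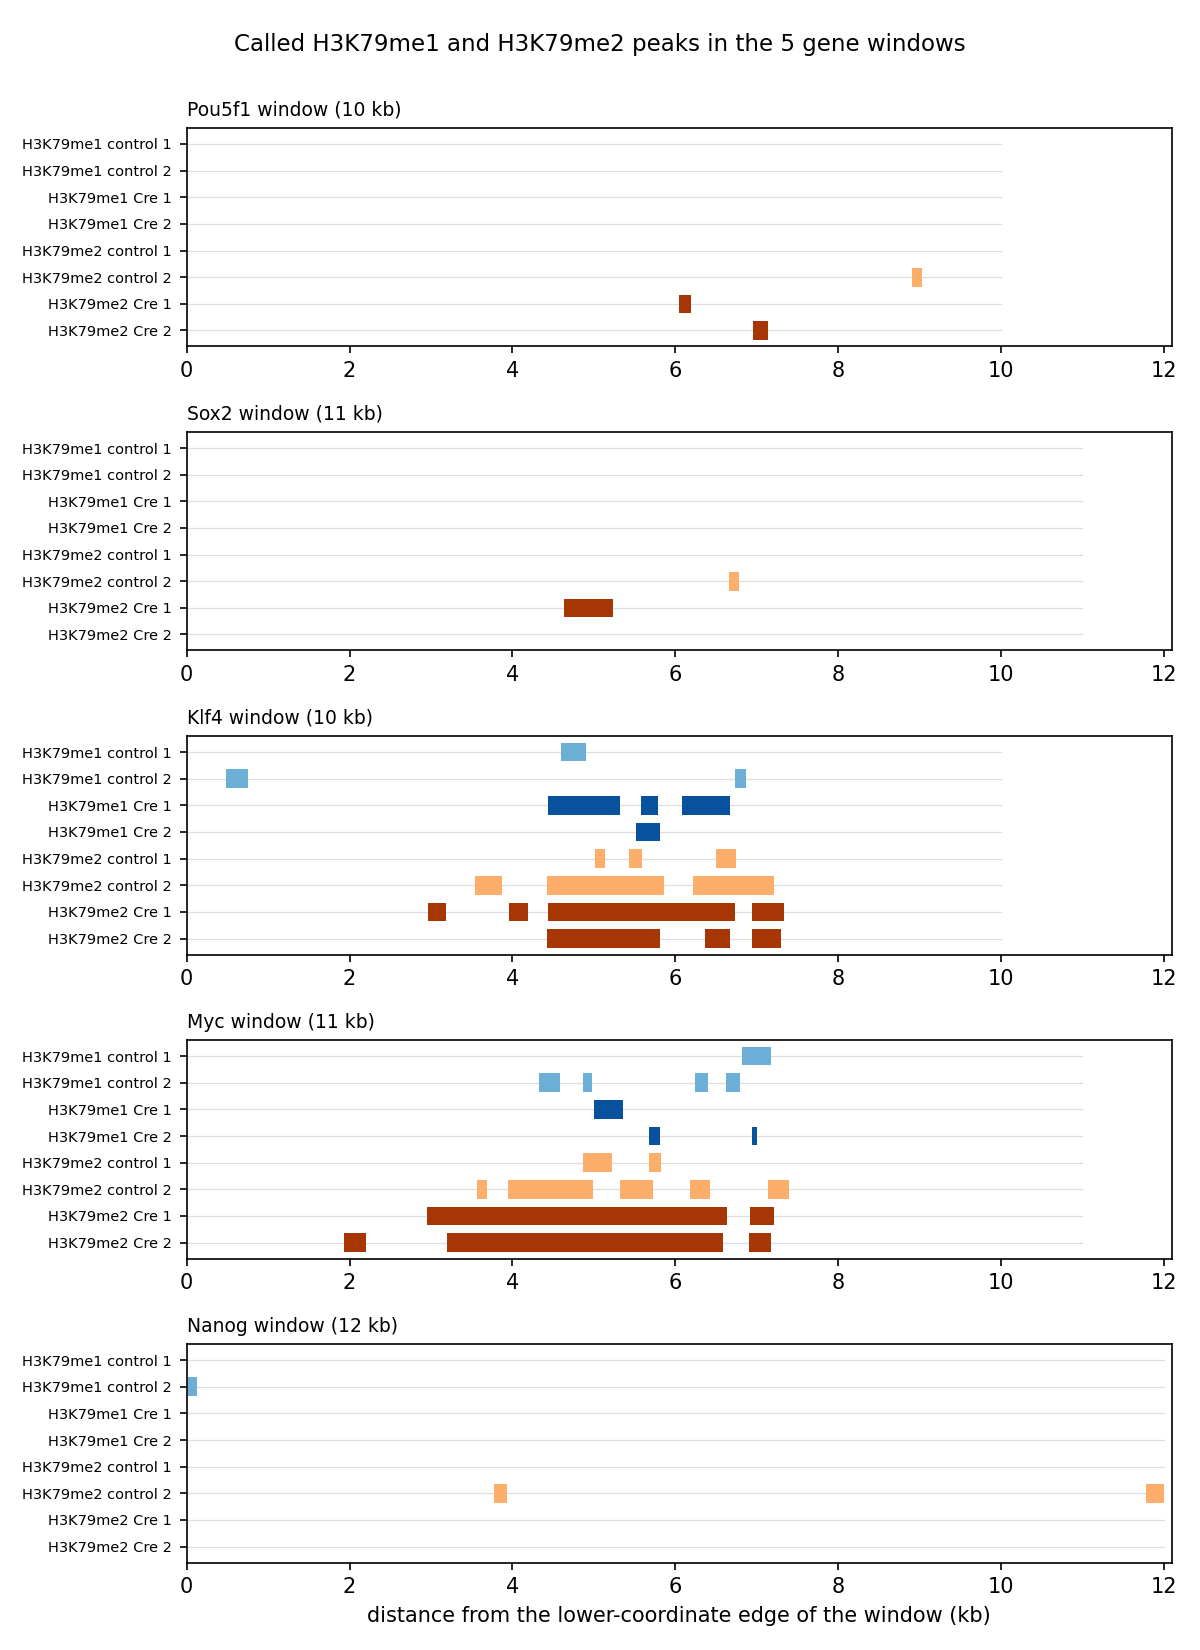
Called peaks in the 5 gene windows, one row per library, with the distance in kb from the lower-coordinate edge of the window on the x axis. Bars are peaks, light for control and dark for Cre, blue for H3K79me1 and orange for H3K79me2. Klf4 and Myc have bars in all 8 rows, and the 2 H3K79me2 Cre rows of Myc each hold one bar of over 3 kb.

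Nearly all of these peaks were weak by the authors' own scores. Their fold enrichment over background ran from 1.46 to 2.66, and their −log10 p-value from 1.04 to 2.67, where MACS2 lists for a broad peak the average over its length. A −log10 p of at least 2 was listed for 3 of the 48, namely 1 H3K79me2 peak at Klf4 in Cre 1 and 1 each at Myc in H3K79me2 control 1 and Cre 1. Weak peaks were the rule in most lists, since the share of a whole list at −log10 p of at least 2 was between 0.744% and 8.07% in 6 of the 8. It was 67.5% in H3K79me1 Cre 2 and 82.8% in H3K79me2 control 1. A −log10 q above 0 was listed for 4 of the 48 peaks. The median width was 266 bp and the widest peak spanned 3688 bp.

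Myc encodes a transcription factor that drives growth and cell division. Its window was covered by H3K79me2 peaks to 4.69% in control 1, 18.8% in control 2, 36.2% in Cre 1 and 35.9% in Cre 2. Both Cre libraries lay above both controls, and they lay closer to each other than the controls did. Control averaged 11.7 ± 9.94% and Cre 36.1 ± 0.257% (SD, n = 2), which is 24.3 percentage points apart. limma, fitted over 11930 windows with a mean H3K79me2 cover of at least 10%, gave this difference an SE of 18.0 points, with an unadjusted p of 0.177 and a Benjamini-Hochberg adjusted p of 1. The exact two-sided permutation test gave p = 0.333, the smallest that 2 against 2 libraries allow. The higher cover at Myc was therefore not distinguished from the spread between libraries. Of the other tested windows, 5.04% had a higher difference than Myc, and the median difference was 7.31 points. That median was -5.46 points without control 1 and 21.8 points without control 2.

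The shape of the Myc calls differed as well as their sum. In Cre 1 one H3K79me2 peak of 3688 bp ran from 61816954 to 61820641 on chromosome 15, and in Cre 2 one of 3395 bp ran from 61817192 to 61820586. Their widths exceeded those of 98.6% and 99.4% of the peaks in their own lists. Over the same stretch control 2 had 4 separate peaks, the widest of 1037 bp from 61817952 to 61818988. Control 1 had peaks of 360 and 156 bp there. A second, smaller peak followed in both Cre libraries, from 61820916 to 61821213 and from 61820904 to 61821172. Control 2 had a peak of 257 bp that overlapped both, from 61821138 to 61821394, and control 1 had none there. From 7 to 8 kb into the window the cover was 25.7% in control 2, 21.4% in Cre 1 and 17.3% in Cre 2. In the 1 kb bin from 4 to 5 kb into the window the cover was 13.7% in control 1, 98.9% in control 2 and 100% in both Cre libraries. From 3 to 4 kb it was 0% in control 1, 16.4% in control 2, 100% in Cre 1 and 80.8% in Cre 2.

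Peak width also differed between the whole lists. The median H3K79me2 peak was 89 bp wide in control 1, 194 bp in control 2, 350 bp in Cre 1 and 229 bp in Cre 2, and the part of these widths in the Myc values was not tested. With peaks within 1 kb joined, the Myc difference was 21.4 points (SE 17.8). Relative to the share of the genome that each list covered, the Myc cover was 7.36 times in control 1, 6.63 times in control 2, 18.8 times in Cre 1 and 18.0 times in Cre 2. On the log2 scale of that ratio, with 0.1 added, the difference was 1.39 (SE 0.48), with an unadjusted limma p of 0.00354 and an adjusted p of 0.146, and 11.5% of windows had a higher one. In the flanks of 50 kb on each side of the Myc window the cover was 4.82% in control 1, 6.88% in control 2, 5.51% in Cre 1 and 6.49% in Cre 2, so both Cre values there fell between those of the controls. When peaks under a −log10 p of 2 were dropped the Myc difference was -0.28 points. The wide Cre peaks, with a −log10 p of 1.63 and 1.38, were among those dropped. This cut kept 82.8% of all peaks in control 1 but only 4.49% to 8.07% in the other H3K79me2 lists, so it was not equal across libraries. With all peaks kept, the Myc difference was 17.3 points without control 1 and 31.4 points without control 2. No p-value is given for these fits, since a lone control library has no spread of its own.

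**Figure D2:**
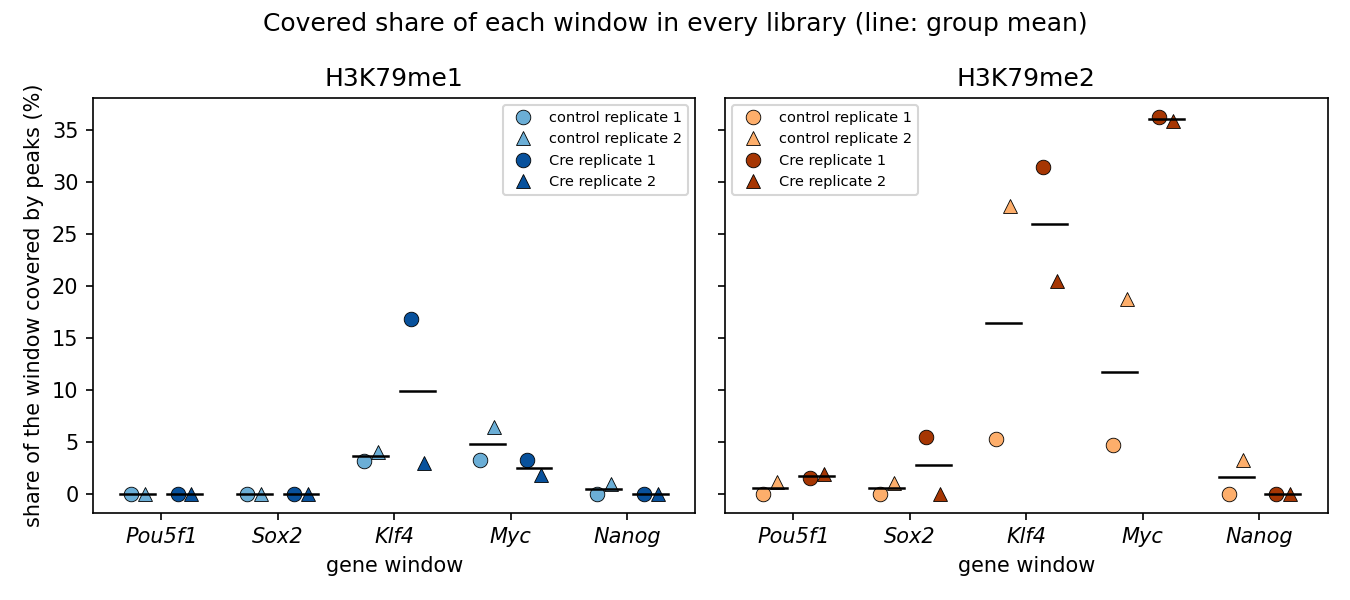
Share of each gene window covered by peaks (percent) for H3K79me1, left, and H3K79me2, right. Circles are replicate 1, triangles replicate 2, light control and dark Cre, and lines are group means of 2 libraries. The H3K79me2 Cre points of Myc, at 36.2% and 35.9%, lie above its controls at 4.69% and 18.8%, while those of Klf4 overlap their controls.

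H3K79me1 peaks covered less of the Myc window than H3K79me2 peaks did, by little in control 1 (3.21% against 4.69%). The marks were called at different p thresholds, so their cover is not directly comparable. H3K79me1 covered 3.21% in control 1, 6.41% in control 2, 3.22% in Cre 1 and 1.76% in Cre 2. Cre 1 was level with control 1, so the groups overlapped. The means were 4.81 ± 2.26% and 2.49 ± 1.03% (SD, n = 2), with a difference of -2.32 points (exact permutation p = 0.667, two-sided). Without control 1 it was -3.92 points and without control 2 it was -0.72 points. Scaled by the cover of each list the difference took the other sign, at 1.92 on the log2 scale (exact permutation p = 0.667), with Cre 2 at 23.6 times its small genome share. No H3K79me1 base of the Myc window was covered in all 4 lists. All 548 bp covered by H3K79me1 in either Cre library lay inside Cre H3K79me2 peaks, and 54.3% of the 1058 bp in either control lay inside control H3K79me2 peaks. The H3K79me2 peaks together spanned 4280 bp of the window in Cre and 2402 bp in control, so more of it could be shared in Cre.

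Klf4 encodes a zinc-finger factor of epithelial and stem cells. H3K79me2 peaks covered its window to 5.22% in control 1, 27.7% in control 2, 31.4% in Cre 1 and 20.5% in Cre 2. The groups overlapped, with Cre 2 below control 2. The means were 16.4 ± 15.9% and 25.9 ± 7.72% (SD, n = 2), and the difference of 9.48 points had an SE of 16.4, an unadjusted limma p of 0.563 and an adjusted p of 1. Without control 1 it was -1.74 points, and without control 2 it was 20.7 points (median over the tested windows, 21.8 points). Without Cre 1 it was 4.02 points, and without Cre 2 it was 14.9 points. The sign of the Klf4 value thus rested on control 1. Of the tested windows, 39.8% had a higher difference. Relative to the cover of its list, the Klf4 cover was 8.19 times in control 1, 9.78 times in control 2, 16.3 times in Cre 1 and 10.3 times in Cre 2.

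The H3K79me2 lists shared a border at Klf4, except control 1, whose first peak there began at 55543016. In 4 lists a peak began within 20 bp, between 55542423 and 55542442 on chromosome 4. These were H3K79me2 control 2, both H3K79me2 Cre libraries and H3K79me1 Cre 1. The H3K79me2 peaks that began there spanned 1436 bp in control 2, 2302 bp in Cre 1 and 1391 bp in Cre 2. The peak of 2302 bp had a fold enrichment of 2.41, above that of 96.3% of the peaks of its list. No other border in the 5 windows was shared so closely by 3 or more lists. In all 4 H3K79me2 lists 443 bp of the Klf4 window were covered, against 177 bp at Myc and none at Pou5f1, Sox2 or Nanog.

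H3K79me1 covered the Klf4 window to 3.18% in control 1, 4.04% in control 2, 16.8% in Cre 1 and 2.97% in Cre 2. Cre 1 was high and the other 3 libraries were close together. The means were 3.61 ± 0.608% and 9.88 ± 9.77% (SD, n = 2), a difference of 6.27 points (exact permutation p = 1, two-sided). Without Cre 1 it was -0.64 points and without Cre 2 it was 13.2 points. Scaled by the cover of each list, both Cre libraries lay above both controls, at 6.97 and 39.7 times against 0.667 and 1.87 times. The log2 difference was 3.77, with an exact permutation p of 0.333. The 39.7 times of Cre 2 is 1 peak of 297 bp set against a list that covers 0.0748% of the genome. Unscaled, Cre 2 had the lowest cover of the 4 libraries. In the flanks of 50 kb on each side no H3K79me1 was called in any of the 4 lists, so the peaks stood alone. All 1774 bp covered by H3K79me1 in either Cre library lay inside Cre H3K79me2 peaks, against 63.6% of 722 bp in the controls. H3K79me2 together spanned 3152 bp of the Klf4 window in Cre and 2766 bp in control.

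**Figure D3:**
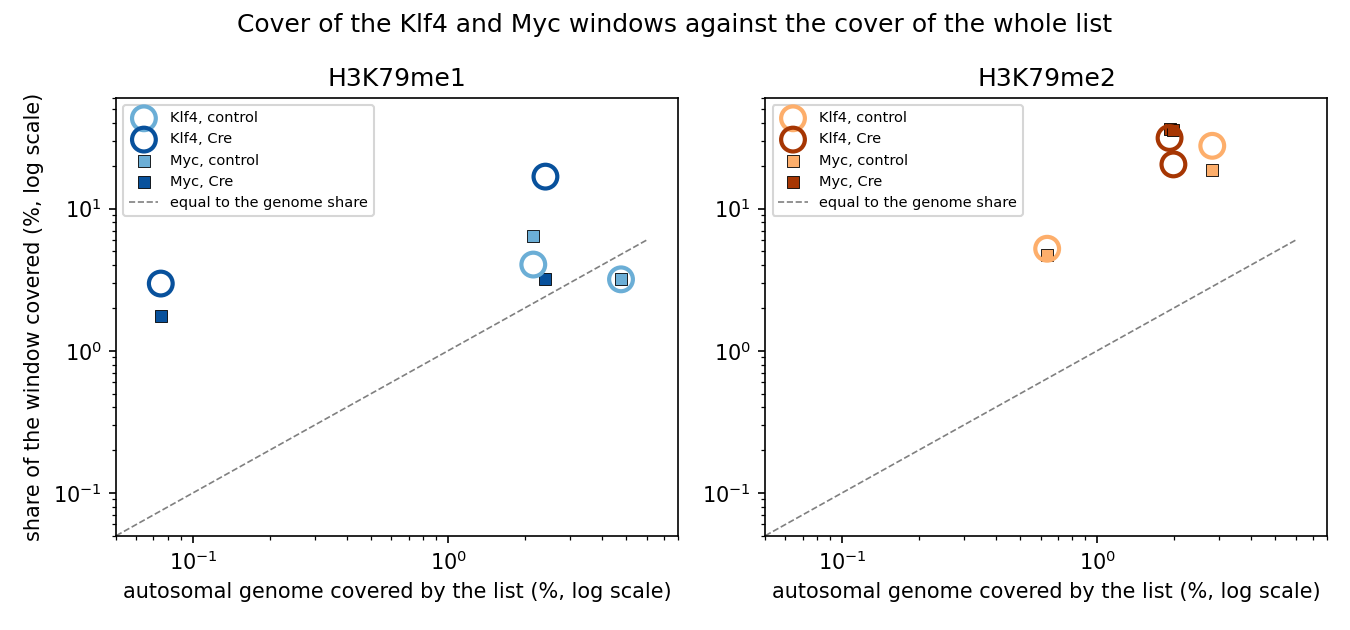
Cover of the Klf4 (open circles) and Myc (squares) windows, in percent on a log axis, against the share of the autosomal genome that the same list covers, in percent on a log axis. Light points are control and dark points Cre libraries, and the dashed line marks equal shares. H3K79me2 points all lie above the line, at 6.63 to 18.8 times the genome share, and H3K79me1 control 1 lies below it for both genes.

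Pou5f1 encodes OCT4, the factor most tightly bound to the pluripotent state. No list had an H3K79me1 peak in its window. H3K79me2 covered 0% in control 1, 1.16% in control 2, 1.47% in Cre 1 and 1.87% in Cre 2. Both Cre libraries lay above both controls, by 1.09 points on average (exact permutation p = 0.333). Without control 1 this was 0.51 points and without control 2 it was 1.67 points. These values are single peaks of 116, 147 and 187 bp at 3 different places, and no base was covered in more than 1 list. The peaks of 116 and 147 bp had the shortest width that their lists contain. They lie 6.05 to 9.03 kb into the window.

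The stretch beyond the Pou5f1 window held more of both marks. In the 5 kb on its higher-coordinate side H3K79me1 covered 39.0% in control 1, 10.1% in control 2, 47.3% in Cre 1 and 0% in Cre 2. H3K79me2 covered 0% of it in control 1, 9.42% in control 2, 22.8% in Cre 1 and 5.66% in Cre 2. On the lower-coordinate side neither mark was called in any list. In the RefSeq table the next protein-coding gene on the higher side is Tcf19, and on the lower side H2-Q10. In the 3 H3K79me1 lists with calls there, the nearest peak lay 1.45 to 4.28 kb from the Pou5f1 window.

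Sox2 encodes an HMG-box factor that binds DNA together with OCT4. Its window had no H3K79me1 peak in any list, and the nearest lay 77.6 kb away in control 1 and 572, 509 and 608 kb away in control 2, Cre 1 and Cre 2. H3K79me2 covered 0% in control 1, 1.05% in control 2, 5.49% in Cre 1 and 0% in Cre 2. The groups overlapped, with a difference of 2.22 points and an exact permutation p of 1. Without Cre 1 the difference was -0.53 points, and with Cre 2 left out instead it was 4.96 points. The value of 5.49% is 1 peak of 604 bp from 34549631 to 34550234 on chromosome 3, at a fold enrichment of 1.72 and a −log10 p of 1.19. Sox2 lies within the long non-coding gene Sox2ot, so a peak here cannot be assigned to Sox2 alone.

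Nanog encodes a homeobox factor of the pluripotency network and has no copy in the OSKM transgene. H3K79me1 covered its window to 0.967% in control 2 and to 0% in the other 3 libraries. H3K79me2 covered 3.21% in control 2 and 0% in the other 3 libraries. All calls at Nanog thus came from control 2 of each mark. The differences were -0.483 points for H3K79me1 and -1.60 points for H3K79me2, each with an exact permutation p of 1. Without control 1 they were -0.967 and -3.21 points, and without control 2 no peak is left. The peaks measured 116, 164 and 331 bp, and that of 116 bp for H3K79me1 began 12 bp inside the window. That of 331 bp crossed its far edge. The nearest H3K79me2 peaks of the Cre libraries lay 24.0 and 24.1 kb away. Dppa3 and Slc2a3 are the protein-coding neighbours in the RefSeq table.

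The highest H3K79me2 cover in any list was 36.2% at Myc, 31.4% at Klf4, 5.49% at Sox2, 3.21% at Nanog and 1.87% at Pou5f1. The order of mean H3K79me2 cover over the 4 lists was Myc at 23.9%, Klf4 at 21.2%, Sox2 at 1.64%, Pou5f1 at 1.12% and Nanog at 0.802%. For H3K79me1 it was Klf4 at 6.74%, Myc at 3.65%, Nanog at 0.242%, and Pou5f1 and Sox2 at 0%. The ranges of Myc and Klf4 over the 4 lists overlapped for both marks, and so did those of Sox2, Pou5f1 and Nanog for H3K79me2. In every H3K79me2 list, Klf4 and Myc were both above the other 3 windows, and the same held in all 4 H3K79me1 lists.

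Set against the genome, these windows gave no called change. At the real spread limma recovered 0 of 200 simulated shifts of 30 points for either mark. A lack of calls here thus does not show a lack of change. None of the 5 genes reached a mean H3K79me1 cover of 10% or entered that fit, which called 0% of 19777 windows, with 108 at an unadjusted p under 0.05. For H3K79me2, Klf4 and Myc were tested and 0 of 2 were called by limma, against 0% of 11930 windows called, with 0 at an unadjusted p under 0.05. Both Cre libraries lay above both controls in H3K79me2 at 2 of 5 genes (Myc and Pou5f1), against 3.72% of 10 kb windows with a peak in at least 1 of the 4 lists. In 10 kb windows of at least 10% mean cover, to which Myc and Klf4 belong and Pou5f1 does not, that share was 15.6%, beside 1 of those 2 genes. The opposite order was found at 0 of 5 genes, against 8.44% of windows, or 0.143% of those with at least 10% mean cover. For H3K79me1 both Cre libraries lay below both controls at 0 of 5 genes, against 29.6% of windows, and above them at 0 of 5, against 0.185%. In windows of at least 10% mean H3K79me1 cover, which include none of the 5 genes, these shares were 45.2% and 0.0303%. The low cover of Cre 2 enters that 29.6%, and 2 of the 5 genes were at 0 in all 4 lists and could not differ. Scaled by the cover of each list, H3K79me2 was higher in both Cre libraries at 3 of 5 genes (Pou5f1, Klf4 and Myc), against 6.08% of windows, and lower at 0 of 5, against 11.6%. Those shares are over windows with a peak in at least 1 of the 4 lists. They were not computed for windows of at least 10% mean cover, to which Klf4 and Myc belong. Of those windows, 35.5% had a higher log2 difference than Klf4 and 11.5% a higher one than Myc. On that scale H3K79me1 was higher in both Cre libraries at 1 of 5 genes (Klf4), against 5.37%, and lower at 0 of 5, against 24.7%. The Klf4 value of Cre 2 rests there on 1 peak of 297 bp in the smallest list. Single libraries decided some unscaled counts. For H3K79me1, Myc and Nanog were below without control 1, Klf4 and Myc were below without Cre 1, and Klf4 was above without Cre 2. For H3K79me2, Nanog was below without control 1, and 4 genes, all but Nanog, were above without Cre 2. The share over all windows was not computed with a library left out, and groups separate more easily with fewer libraries. These counts thus cannot be set against the shares given above. Without H3K79me2 control 2 the median difference over the tested windows was 21.8 points, beside 31.4 points at Myc and 20.7 points at Klf4. The median difference over the 5 genes was 0 points for H3K79me1, where Pou5f1 and Sox2 could not differ, and 2.22 points for H3K79me2. Over all windows with a peak in at least 1 list of the mark, the medians were -3.26 and -0.58 points. Over windows of at least 10% mean cover they were -21.5 and 7.31 points. The low cover of H3K79me1 Cre 2 enters both H3K79me1 medians.

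The response to Cre was also compared between the marks. At Myc the difference of H3K79me1 minus that of H3K79me2 was -26.6 points (SE 17.9), with an unadjusted limma p of 0.137 and an adjusted p of 0.551 over 16021 windows. At Klf4 it was -3.21 points (SE 18.1; limma, adjusted p = 0.886). The median over the tested windows was -27.8 points, and with 1 library left out it ran from -41.6 points (without H3K79me1 control 2) to -14.0 points (without H3K79me1 Cre 2). The Klf4 value was 3.70 points without H3K79me1 Cre 2, 8.01 points without H3K79me2 control 1 and 2.25 points without H3K79me2 Cre 1. The fit called 0 of 2 genes and 0% of windows, with 463 at an unadjusted p under 0.05. A difference between the marks at these genes was therefore not detected.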

How the data were processed

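The peak lists come from 8 ChIP-seq libraries, 4 for H3K79me1 and 4 for H3K79me2, whose groups were read from the sample titles. Another 4 libraries, of RNA polymerase II, are not analysed here. Tools named in the submitters' processing notes are MACS2, Bowtie2, bedtools, HOMER, SAMtools 1.2 and deepTools, along with builds hg19 and mm9, and their roles are not stated. The authors' deposited peak names record broad calling per library with an input control, and p thresholds of 0.001 (H3K79me1) and 1e-04 (H3K79me2). Each list gives the authors' deposited fold enrichment (a ratio), −log10 p-value, −log10 q-value and score per peak, which served only to describe, rank or filter peaks within a list. Spike-in scaling is not recorded in them. Peak cover is not signal height, and a change in level above or below the calling threshold would not show. Read depth is unknown, so precision comes only from the spread between libraries.

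Cover is the share of a window inside peaks, with any overlap counted and positions from base 1. The background was 247223 autosomal windows of 10 kb, since H3K79me1 control replicate 1 lists no peak on chromosome X. limma (moderated with a trend, calls at a Benjamini-Hochberg adjusted p under 0.05) was fitted per mark, and over both marks for the interaction, to those genome and gene windows whose mean cover was 10% or more. All 5 genes were named by rule. Overlap of the marks was taken between the unions of the 2 lists per mark and condition, not per replicate number, since no label pairs the numbers. No gene positions on mm9 were used, so no other gene was given a value. Exact permutation tests are two-sided over 6 arrangements. On simulated windows with 200 shifts of 30 points at the real spread, limma recovered 0 for H3K79me1 (19777 windows) and 0 for H3K79me2 (11928 windows), and 198 and 200 with the spread multiplied by 0.1. Alternatives were stricter or joined peaks, wider windows, other scalings and minimum covers, a replicate block and each library left out. The genes and tests were chosen with earlier results of these data known. Python 3.11.15, pandas 2.3.3, NumPy 2.4.6, Matplotlib 3.10.9, R 4.3.3 and limma 3.58.1 were used.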

Additional observations from a re-analysis of the deposited data

How the results depend on the processing

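Of 210 alternative values, 185 kept their direction and call, or a count within 1.5 times. Many of these could not change a call: 17 are limma counts with none of the 5 genes tested, and 54 are exact permutation tests, whose smallest p is 0.333 or higher. When peaks under a −log10 p of 2 were dropped, Myc H3K79me2 became -0.28 points and the count of genes with both Cre libraries above both controls became 0 for that mark. This cut kept 82.8% of the peaks of H3K79me2 control 1 but only 4.49% to 8.07% of those in the other H3K79me2 lists. The count was also 0 with 12155 peaks from every list, and 1 with peaks of at least 500 bp or windows widened by 5 kb. Widened windows put 1 gene below. With equal peak numbers Myc H3K79me1 became 0.88 points, on the log2 ratio scale 1.92, and as a percentile 6.61 points. On the ratio scale 1 gene had both Cre libraries above both controls in H3K79me1, against 5.37% of windows, and 3 in H3K79me2, against 6.08%.

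With each library left out in turn, 1 group of a mark holds 1 library, so limma calls are not given for those fits. The genes with both Cre libraries below both controls then numbered 0 to 2 for H3K79me1 and 0 to 1 for H3K79me2. Those above numbered 0 to 1 and 2 to 4. The share over genome windows was not computed for these counts. The differences ran from -0.64 to 13.2 points for Klf4 H3K79me1, from -1.74 to 20.7 for Klf4 H3K79me2, from 17.3 to 31.4 for Myc H3K79me2, from -3.92 to -0.72 for Myc H3K79me1, from 0.51 to 1.67 for Pou5f1 H3K79me2, and from -0.53 to 4.96 for Sox2 H3K79me2. The Klf4 interaction ran from -14.4 to 8.01 points, being 3.70 without H3K79me1 Cre replicate 2 and 2.25 without H3K79me2 Cre replicate 1. Without both H3K79me1 Cre replicate 2 and H3K79me2 control replicate 1, chosen after seeing the data, it was 14.9. The left-out counts of genes, peaks of at least 500 bp or at least 50% inside for the counts, and the 5% minimum with a block were also chosen after seeing the data. The causes were not tested.

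With the replicate number as a block, 0 genes were called in either mark or the interaction, with Myc H3K79me2 at 24.3 points (SE 26.3; limma, adjusted p = 1). The Myc interaction was then -26.6 points (SE 12.0; limma, adjusted p = 0.162). Windows called went from 0 to 9886 of 19777 for H3K79me1 and stayed at 0 of 11930 for H3K79me2. Of the 9886, 9856 were lower in Cre and 30 higher. With 4 libraries per mark, the block leaves little from which to estimate the spread. Same-numbered libraries deviated together across windows for H3K79me1 (r = 0.317) but not for H3K79me2 (r = -0.239), and no label says what the numbers share. On the ratio scale 547 of 19777 windows were called for H3K79me1 and 115 of 11930 for H3K79me2, and on the percentile scale 360 and 0. Where Klf4 and Myc were tested in these fits, neither was among the windows called. No value could be given for genes left without peaks.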
